A study of Cavia porcellus with 12 samples.

Results

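The regulators that give hepatocytes their identity were followed in liver RNA of guinea pigs with nonalcoholic steatohepatitis (NASH) and of controls. 9 genes were named for this purpose (*CEBPA*, *CEBPB*, *FOXA1*, *FOXA2*, *FOXA3*, *ONECUT1*, *PROX1*, *NR5A2* and *A1CF*), and those that are rows of the deposited table of log2 values were taken. 6 of the 9 are in that table, out of 11896 symbols in all. *CEBPA*, *FOXA1* and *NR5A2* are not among its rows and were not analysed here. 5 of the 6 genes encode transcription factors, whereas *A1CF* encodes an RNA-binding protein, so the group is called hepatocyte identity genes below. Each of the 6 has a count row of its own, shared with no other symbol.

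The animals were female guinea pigs, labelled Dunkin Hartley, and each of the 12 gave 1 liver sample. 6 controls had eaten chow and 6 NASH animals a high-fat diet with added sucrose and cholesterol, for 25 weeks in both groups. The NASH animals were picked for bridging fibrosis and the controls at random among animals without it, so diet and disease cannot be told apart in this comparison. The livers were not perfused, and whole tissue of 1 lobe was used. Animals are named by the numbers in the labels (5, 10, 31, 32, 45 and 56 for controls, 2, 9, 11, 20, 41 and 65 for NASH).

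Hepatocytes keep their identity through a network of factors that bind together at liver enhancers and promoters and switch on each other's genes. FOXA proteins are pioneer factors that can bind DNA still wrapped in nucleosomes. C/EBP proteins drive metabolic and acute-phase genes, ONECUT1 (HNF6) and PROX1 are homeodomain factors of liver development that remain in use in the adult organ, and A1CF guides the enzyme APOBEC1 to the transcript of apolipoprotein B, whose RNA it edits. The network has been studied in the adult liver for its part in glucose, lipid and bile acid metabolism.

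Sequencing gave between 16980274 and 33091460 counts per animal. The TMM scaling factors of edgeR, which correct for the make-up of each library, were 0.80 to 0.88 for the controls but 1.12 to 1.24 for the NASH animals, so the factors differed by group. Levels are given as CPM, counts scaled to a common library size after TMM correction. CPM does not correct for transcript length, so levels are compared between animals and not between genes. A gene was called changed at a Benjamini-Hochberg adjusted p-value under 0.05 in edgeR's quasi-likelihood test, adjusted over all 11896 symbols.

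*FOXA2*, *FOXA3* and *A1CF* were lower in NASH, *CEBPB*, *ONECUT1* and *PROX1* did not pass the threshold, and 0 of the 6 genes were higher. The 3 calls stand beside a background in which 53.9% of all symbols were called, 27.9% higher and 26.0% lower. With library size alone in place of TMM factors, 7603 symbols were called higher and 911 lower in edgeR, in place of 3318 and 3093, and the median log2 fold change of all symbols moved to 0.48. 2 of the identity genes, *FOXA2* and *A1CF*, were still called lower under that scaling and 0 higher. The same 3 genes had CPM values that did not overlap between the groups in the lower direction, as did 15.3% of all symbols (33.7% in either direction). Relative to library totals alone, *FOXA2* and *FOXA3* did overlap. *FOXA2* was higher in NASH animal 9 (180 of 29539332 counts) than in control 10 (105 of 23330165). *FOXA3* was higher in NASH animal 11 (1937 of 26283942 counts) than in control 56 (1128 of 16980274). At an unadjusted p under 0.05 edgeR gave 4 lower and 0 higher genes. DESeq2 called 4 lower and 0 higher, and limma-voom 3 lower and 0 higher. The median log2 fold change of the 6 genes was −0.50, beside 0.0018 for all symbols. In whole liver, fewer hepatocytes and less RNA per hepatocyte cannot be told apart.

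**Figure D1:**
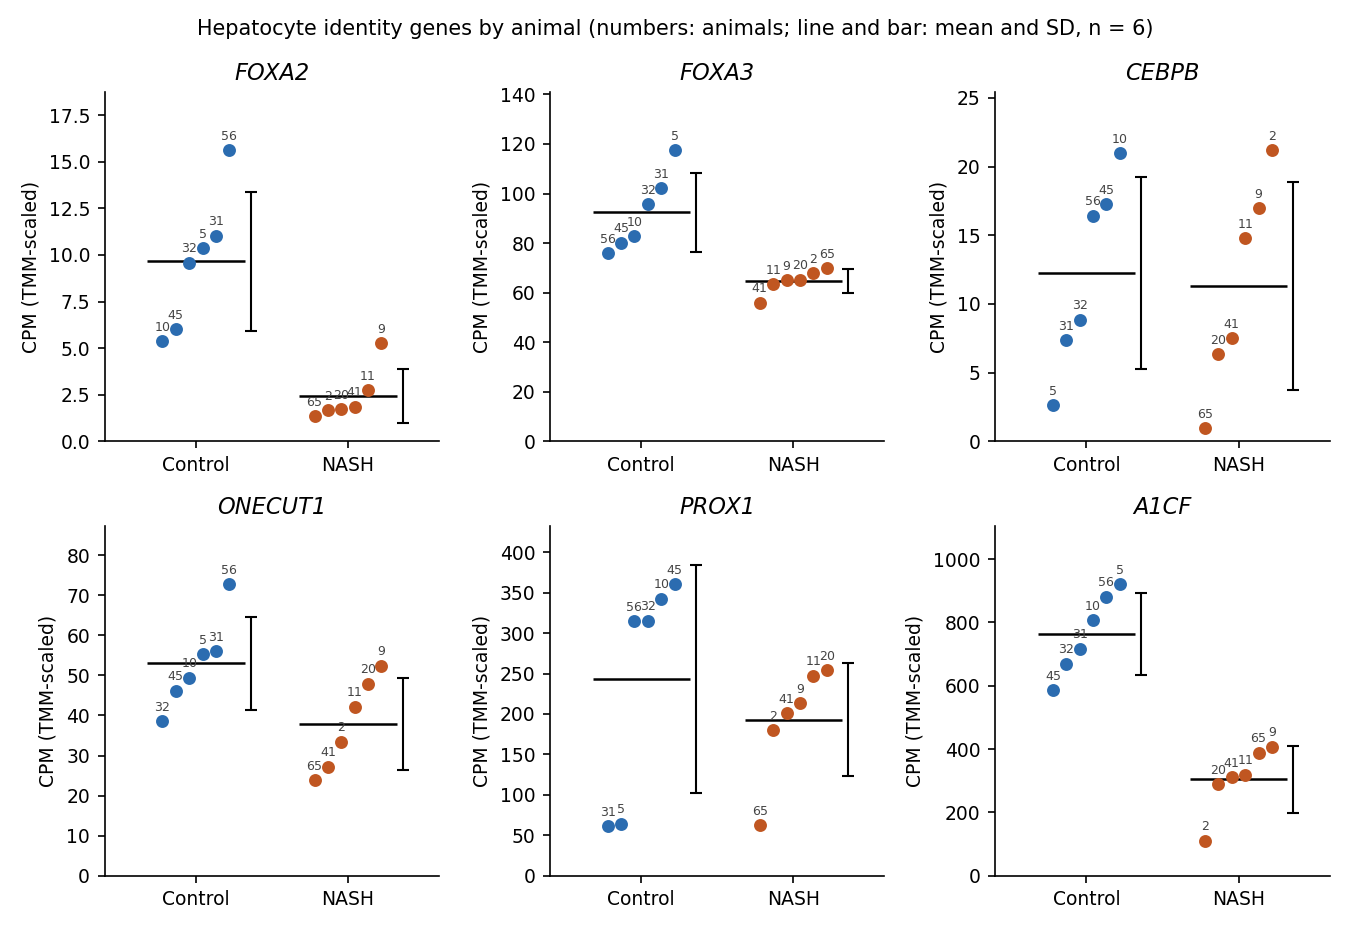
CPM of the 6 hepatocyte identity genes (vertical axes, TMM-scaled, each from 0) in each control and NASH animal, with 1 point per animal labelled by its number. The horizontal line is the mean and the bar the SD (n = 6). *FOXA2*, *FOXA3* and *A1CF* values of the groups lie apart, and *PROX1* falls near 60 in controls 5 and 31 and in NASH animal 65.

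Among the FOXA genes, *FOXA2* showed the largest decrease of the 6 genes. *FOXA2* encodes a pioneer factor of foregut endoderm that in the adult liver is linked to fasting metabolism and bile acid homeostasis. Its level ran from 5.38 CPM through a median of 9.98 to 15.6 CPM in controls, and from 1.37 through 1.79 to 5.26 CPM in NASH. The mean was 9.67 ± 3.73 CPM in controls and 2.44 ± 1.46 CPM in NASH (SD, n = 6 each). The lowest control (animal 10) and the highest NASH animal (animal 9) were close to each other, and the other 5 NASH animals were at 2.75 CPM or less. edgeR gave a log2 fold change of −1.98 (SE 0.36, 95% interval −2.75 to −1.20, adjusted p = 0.000501), which is 3.94-fold lower in NASH. Only 0.83% of all symbols had a lower log2 fold change. The counts behind these values were small, 105 to 237 per control and 39 to 180 per NASH animal. It was the only one of the 6 genes called lower when edgeR tested against an absolute log2 fold change of 1 (adjusted p = 0.0236).

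*FOXA3*, which encodes the FOXA factor most tied to the adult liver and to glucose and lipid genes, showed a smaller and more even decrease. Levels in controls were 75.9 CPM at the lowest, 89.3 at the median and 117 at the highest. In NASH they were 55.96, 65.1 and 69.9 CPM. All 6 NASH animals thus lay below the lowest control. The means were 92.4 ± 15.8 CPM and 64.6 ± 4.81 CPM (SD, n = 6 each), and the coefficient of variation was 17.1% in controls and 7.45% in NASH. edgeR gave −0.52 (SE 0.11, 95% interval −0.75 to −0.29, adjusted p = 0.00118), a 1.43-fold lower level. This call depended on the scaling, since with library size alone the log2 fold change of *FOXA3* was −0.04 (adjusted p = 0.747 in edgeR).

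To compare the FOXA genes with each other, the ratio of *FOXA3* to *FOXA2* within an animal, which hardly depends on the scaling of libraries, was compared directly. The log2 ratio, from log2 CPM with a prior count of 2, was 3.32 ± 0.58 in controls and 4.84 ± 0.71 in NASH (SD, n = 6 each). The difference of 1.52 had a two-sided exact permutation p of 0.00649. The groups overlapped through NASH animal 9, whose log2 ratio of 3.61 lay below those of controls 10 (3.92) and 45 (3.72). The ratio in the other 5 NASH animals was 4.49 or higher. On the deposited rlog values, which draw low counts towards the mean, the difference was 0.54 (exact permutation p = 0.00866).

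**Figure D2:**
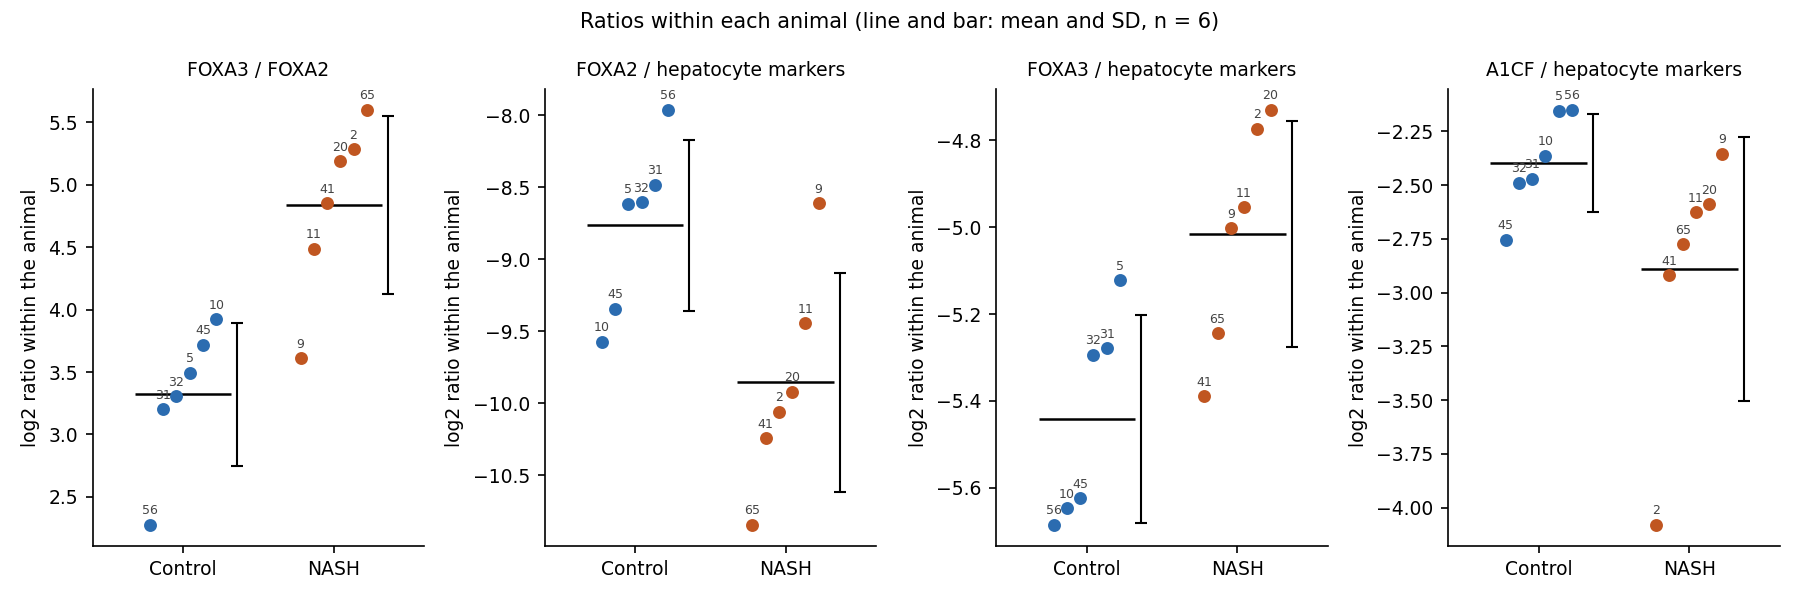
Log2 ratios within each animal: *FOXA3* to *FOXA2* in the left panel, and *FOXA2*, *FOXA3* and *A1CF* each to the mean of 15 hepatocyte marker genes in the other panels, with 1 numbered point per animal, the mean (line) and the SD (bar, n = 6). The groups overlap in every panel. The *FOXA3* ratios are higher in NASH on average and the other 2 marker ratios lower.

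*A1CF*, the APOBEC1 complementation factor, also had values that did not overlap. Controls ran from 586 CPM through a median of 762 to 919.7 CPM, and NASH animals from 109.8 through 315 to 408 CPM. The lowest control, animal 45, was above the highest NASH animal, animal 9. NASH animal 2 stood well below the other 5 NASH animals, the next of which was at 288 CPM. The mean was 763 ± 129 CPM in controls and 304 ± 106 CPM in NASH (SD, n = 6 each), and edgeR gave −1.33 (SE 0.25, 95% interval −1.88 to −0.78, adjusted p = 0.000711), or 2.51-fold lower. The counts were 12871 to 15735 per control and 3230 to 13968 per NASH animal, and 2.77% of all symbols had a lower log2 fold change. With library size alone the log2 fold change was −0.86 and the call held (adjusted p = 0.00522 in edgeR). Tested against an absolute log2 fold change of 1 in edgeR, *A1CF* was not called (adjusted p = 0.258).

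*ONECUT1* encodes HNF6, a cut-homeodomain factor with roles in bile duct formation and in glucose and bile acid genes. Its levels were 38.5, 52.4 and 72.7 CPM in controls and 23.9, 37.8 and 52.4 CPM in NASH (lowest, median and highest). The groups overlapped broadly. The mean was 53.0 ± 11.6 CPM in controls and 37.8 ± 11.5 CPM in NASH (SD, n = 6 each), and edgeR's adjusted p missed the threshold (log2 fold change −0.49, SE 0.20, 95% interval −0.93 to −0.04, adjusted p = 0.0607). DESeq2 gave the same log2 fold change of −0.49 with an adjusted p of 0.0422. Leaving out control 32, NASH animal 9 or NASH animal 20 also brought it past the threshold in edgeR (adjusted p = 0.0372, 0.0257 and 0.0431). The other 9 omissions left it short of the threshold (adjusted p = 0.0648 to 0.138 in edgeR), as did upper-quartile factors (adjusted p = 0.108), and with library size alone the log2 fold change was −0.01.

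*CEBPB* encodes a C/EBP factor that rises in liver with injury, inflammation and regeneration. Its levels varied more between animals of 1 group than between the groups. Controls ran from 2.64 CPM through a median of 12.6 to 21.0 CPM, and NASH animals from 0.98 through 11.1 to 21.2 CPM. The highest animal exceeded the lowest 7.93-fold in controls and 21.6-fold in NASH. edgeR gave −0.12 (SE 0.59, 95% interval −1.39 to 1.15, adjusted p = 0.874), an interval that includes more than a 2-fold change in either direction. Library size alone turned the direction, to 0.36, without a call. Counts were 37 to 419 in controls and 28 to 623 in NASH.

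*PROX1* encodes a prospero homeodomain factor of hepatocytes, which also marks lymphatic endothelium. Its levels were not spread evenly. 3 animals, controls 31 (61.2 CPM) and 5 (64.2 CPM) and NASH animal 65 (62.7 CPM), lay apart from the other 9, which ran from 179.7 to 360.2 CPM. The medians were 315 CPM in controls and 207 CPM in NASH, and the means 243 ± 141 and 193 ± 69.7 CPM (SD, n = 6 each). edgeR gave −0.33 (SE 0.47, 95% interval −1.35 to 0.69, adjusted p = 0.575). It was −0.15 without NASH animal 65, −0.53 without control 5 and −0.53 without control 31, with no call in edgeR. With library size alone the direction turned, to 0.15. The low values rested on 898 counts or more, so counting error is small beside the gap. Counts are per locus assembled by StringTie, and the part of that assembly in the low values of *PROX1*, *CEBPB* and *RBM47* was not tested. Lymphatic endothelial markers, of which 3 of 4 listed are in the table, had sums of 204 to 287 CPM among controls against 126 to 192 CPM among NASH animals. 2 of the 3, *LYVE1* and *FLT4*, were lower in NASH, whereas *CCL21* had a log2 fold change of 0.51 without a call (adjusted p = 0.105 in edgeR). *LYVE1* was the largest of the 3 in controls, at 118 CPM on average. The part of lymphatic endothelium in the *PROX1* values was not tested.

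**Figure D3:**
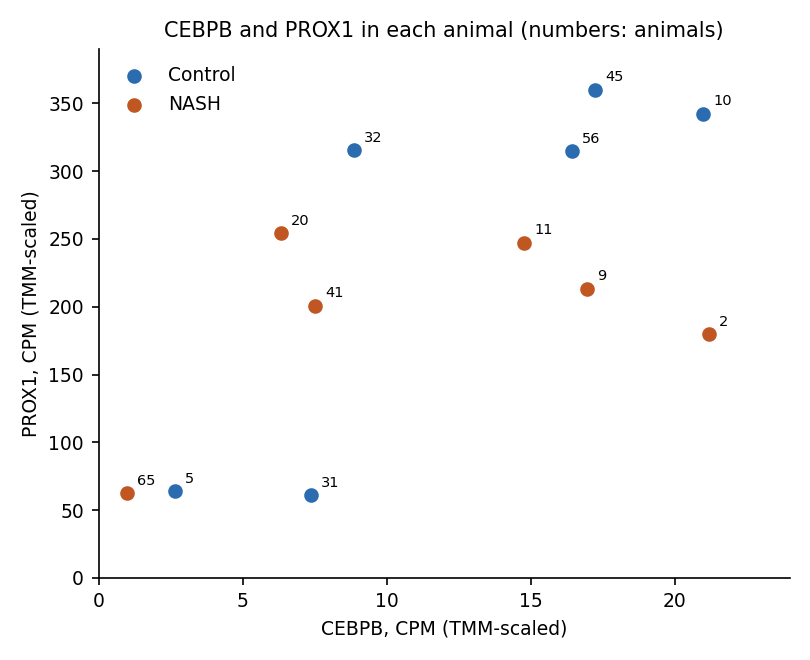
*PROX1* against *CEBPB* (both CPM, TMM-scaled) in the 12 animals, with 1 point per animal labelled by its number and coloured by group. NASH animal 65 and control 5 lie at the lower left, with *CEBPB* at 0.98 and 2.64 CPM, and control 31 is as low in *PROX1* as these.

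Control 5 and NASH animal 65 had the lowest *CEBPB* of their groups, and NASH animal 65 also had the lowest *FOXA2*, *ONECUT1* and *PROX1* of the NASH animals. Both animals had the highest *FOXA3* of their groups (117 CPM in control 5 and 69.9 CPM in NASH animal 65), and control 5 also had the highest *A1CF* of the controls. Markers of other cell types also set these animals apart. Control 5 had the lowest macrophage levels of the controls for 5 of the 7 markers. Among them were *C1QC* (22.2 CPM, 48.5 to 69.6 in the other controls), *CSF1R* (6.86 CPM, 24.1 to 39.4) and *MARCO* (28.6 CPM, 66.2 to 109). For *C1QA*, control 5 lay close to control 45 (31.94 and 34.98 CPM). *CD68* went the other way, with control 5 the highest of the controls (195.6 CPM, 154.8 to 180.99 in the others). *CD14* in control 5 was 80.9 CPM, within the range of the other controls (67.9 to 88.9). NASH animal 65 had the highest *CSF3R* of the neutrophil list (7.07 CPM, 1.70 to 3.88 in the other NASH animals) and, with NASH animal 41, high erythroid *HBA1* (3119.9 and 4289 CPM, 405 to 698 in the other 4). *HBA1* shares its count row with another symbol. The part of these cells in the low *CEBPB* and *PROX1* values was not tested. With both animals left out together, an alternative chosen after seeing the data, the same number of genes was called in edgeR, 3 lower and 0 higher. Within groups of 6 animals, Pearson's r was computed for the 15 pairs of the 6 genes in each group, 30 in all. 4 pairs had an unadjusted exact permutation p under 0.05 and 0 an adjusted p under 0.05. In controls, *CEBPB* and *FOXA3* had r = −0.95 (exact permutation p = 0.0111, adjusted p = 0.25) with Spearman's rho −0.77 (exact permutation p = 0.103), and r = −0.98 without the 2 farthest animals. *FOXA3* and *PROX1* had r = −0.85 there (exact permutation p = 0.0333, adjusted p = 0.25) with rho −0.60 (exact permutation p = 0.242), and r = −0.79 without the 2 farthest. In NASH, *ONECUT1* and *PROX1* had r = 0.74 (exact permutation p = 0.0264, adjusted p = 0.25) with rho 0.77 (exact permutation p = 0.103), and r = 0.80 without the 2 farthest. *CEBPB* and *PROX1* had r = 0.83 in controls (exact permutation p = 0.0278, adjusted p = 0.25) with Spearman's rho 0.83 (exact permutation p = 0.0583), and r = 0.74 without the 2 farthest animals. In NASH the same pair had r = 0.82 (exact permutation p = 0.14) with rho 0.03, and r was −0.10 without the 2 farthest animals, so the relation rested on those animals.

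**Figure D4:**
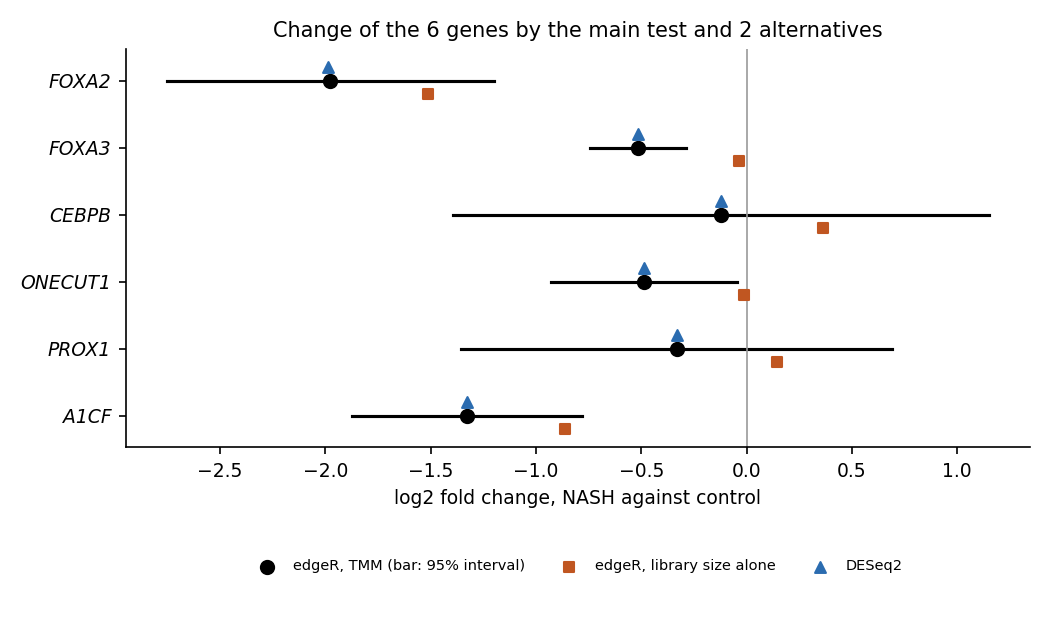
Log2 fold change, NASH against control, of the 6 hepatocyte identity genes by edgeR with TMM factors (circle, with the 95% interval), by edgeR with library size alone (square) and by DESeq2 (triangle). The intervals of *FOXA2*, *FOXA3*, *ONECUT1* and *A1CF* lie below 0, those of *CEBPB* and *PROX1* include it, and the square lies to the right of the circle for each gene.

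Each gene was next set against genes made by the hepatocytes themselves. Of 16 listed hepatocyte markers 15 are in the table, and none had a count of 0 in any animal. 13 of the 15 were lower in NASH, beside 26.0% of all symbols, and 0 were higher in edgeR (0 higher at an unadjusted p under 0.05 and in DESeq2 as well). Their median was −0.83 on the log2 scale, and their summed level was 131157 to 154376 CPM in controls and 57893 to 89214 CPM in NASH. For each hepatocyte identity gene, the mean log2 CPM of the 15 markers was subtracted in each animal, and the 6 differences between groups were tested without adjustment by two-sided exact permutation. *FOXA3* was higher relative to the markers in NASH by 0.43 (−5.44 ± 0.24 in controls and −5.02 ± 0.26 in NASH, SD, n = 6 each, exact permutation p = 0.0173). *FOXA2* was lower relative to them by 1.09 on the log2 scale (−8.76 ± 0.59 and −9.85 ± 0.76, exact permutation p = 0.0238). On rlog values the *FOXA2* difference was −0.25 (exact permutation p = 0.18), without a call. *A1CF* was lower relative to them as well, by 0.49 (−2.40 ± 0.23 and −2.89 ± 0.61, exact permutation p = 0.0455), a call that ended in 9 of the 12 omissions of 1 animal: controls 5, 10, 31, 32 and 56 and NASH animals 2, 11, 41 and 65 (exact permutation p = 0.0519 to 0.0909). The difference was smallest, −0.26, without NASH animal 2, which was far below the others. The remaining differences were 0.41 for *ONECUT1* (exact permutation p = 0.19), 0.82 for *PROX1* (exact permutation p = 0.186) and 0.60 for *CEBPB* (exact permutation p = 0.489). The *CEBPB* difference was 0.21 without control 5 (exact permutation p = 0.823) and 1.25 without NASH animal 65 (exact permutation p = 0.0519). The *PROX1* difference turned on the 3 animals with low levels: it was 1.19 without NASH animal 65 (exact permutation p = 0.00866), but 0.49 without control 5 and 0.49 without control 31 (exact permutation p = 0.372 for each).

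These ratios also depended on the reference. Against *ALB* alone, whose own log2 fold change was −1.29, *FOXA2* differed by −0.71 (exact permutation p = 0.102), *A1CF* by −0.11 (exact permutation p = 0.818; −0.34, p = 0.182, against the median of the markers) and *ONECUT1* by 0.79 (exact permutation p = 0.0238). *FOXA3* was higher relative to the reference in each of the 3 other settings tried, by 0.29 to 0.81 (exact permutation p = 0.00216 to 0.0195, the first being the smallest that 6 against 6 animals allow). *ALB* was the only marker used alone. Log2 fold changes of the 15 markers ran from −2.20 (*TTR*) to −0.18 (*ASGR1*), and that of *FOXA3*, −0.52, was close to that of *FGB* (−0.52). A marker that fell as little as *FOXA3* was not tried alone as the reference.

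Markers of some other cell types were higher in NASH. Cholangiocyte markers, 6 of 9 in the table, had sums of 93.2 to 142 CPM among controls against 331 to 580.3 CPM among NASH animals, and 5 of the 6 were higher. Stellate cell markers, 7 of 7 in the table, had sums of 465 to 577 CPM against 989 to 1657 CPM, with 5 higher and 1 lower. Macrophage markers, 7 of 11 in the table, had overlapping sums of 389 to 653 CPM against 579 to 776 CPM, with 1 higher, 1 lower and 5 not called. Neutrophil markers (3 of 5 in the table) had 2 higher, blood endothelial markers (4 of 4) 2 higher and erythroid markers (3 of 6) all 3 higher. *S100A8* and *S100A9* of the neutrophil list and *SLC4A1* of the erythroid list were at 0 in some animals. The part of these cell types in the levels of the 6 genes was not tested.

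**Figure D5:**
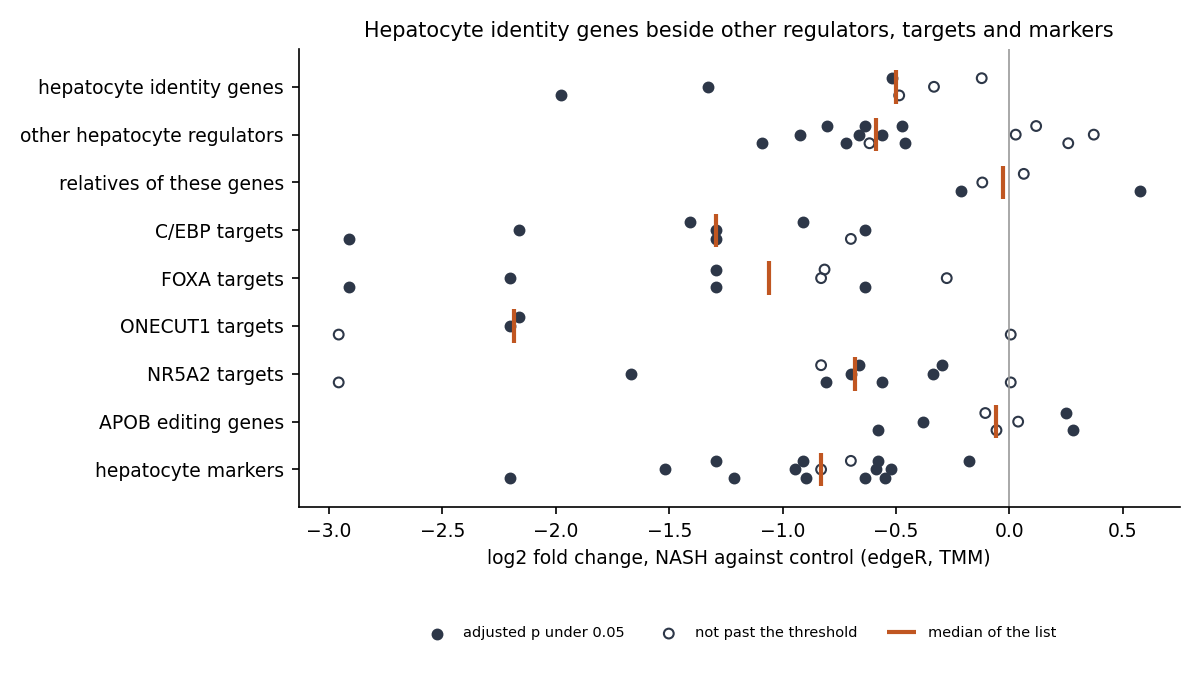
Log2 fold change, NASH against control, from edgeR for the hepatocyte identity genes, other hepatocyte regulators, genes related to the identity genes by family or name, targets by factor, genes of *APOB* editing and hepatocyte markers, with 1 circle per gene (filled at an adjusted p under 0.05) and the median of each list as a bar. The median of the identity genes lies at −0.50 and that of the hepatocyte markers at −0.83.

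Of the other hepatocyte regulators, 14 of the 18 listed are in the table, which lacks *HNF4A*, *HHEX*, *GATA4* and *NFIL3*. Of these 14, 9 were lower, beside 26.0% of all symbols, 0 higher and 5 not called in edgeR (at an unadjusted p under 0.05 it gave 9 lower and 1 higher, DESeq2 called 9 lower and 0 higher, and limma-voom 9 lower and 1 higher). Their median log2 fold change was −0.59. The lowest were *KLF15*, a factor of fasting and amino acid metabolism (136 to 64.0 CPM on average, log2 fold change −1.09, adjusted p = 0.0183 in edgeR, and 0.107 with library size alone), and *CREB3L3*, a hepatocyte factor of triglyceride metabolism (59.8 to 31.5 CPM, −0.92, adjusted p = 0.000551 in edgeR). Of 9 listed genes related to the identity genes by family or name, 4 are in the table. *CEBPG*, a short C/EBP that dimerises with its relatives, was higher (3.98 to 5.93 CPM, 0.57, adjusted p = 0.00222 in edgeR). *CEBPZ*, which shares the C/EBP name but lacks the bZIP domain of that family, was lower by 0.21 (adjusted p = 0.0469 in edgeR), and 0.27 higher with library size alone. This call ended in 9 of the 12 omissions of 1 animal and held without control 31, control 32 or NASH animal 20 (adjusted p = 0.0164 to 0.0943 in edgeR over the 12). *DDIT3*, which encodes the C/EBP-related stress factor CHOP, had a log2 fold change of 0.06 (adjusted p = 0.821 in edgeR), and 0.53 with library size alone (adjusted p = 0.0355). *ONECUT2* had a log2 fold change of −0.12 (adjusted p = 0.496 in edgeR), which ran from −0.22 to −0.05 with 1 animal left out. The direction of these regulators and relatives depended on the scaling, as 10 of the 18 were lower and 1 higher with TMM factors but 2 lower and 7 higher with library size alone.

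Genes that textbooks give as targets of these factors were lower in NASH for the larger part. Of 22 listed, 21 are in the table, and edgeR called 15 lower and 0 higher (at an unadjusted p under 0.05 it gave 18 lower and 0 higher, and DESeq2 called 17 lower and 0 higher). Over all symbols 26.0% were called lower. The list of targets was chosen with earlier results of these data known, so setting it beside that share is not a test. The median over these targets was −0.82 on the log2 scale, beside −0.83 for the hepatocyte markers, which share 6 genes with this list (*ALB*, *TTR*, *SERPINA1*, *APOA1*, *CPS1* and *HP*). 7 of 8 C/EBP targets, 5 of 8 FOXA targets, 2 of 4 *ONECUT1* targets and 7 of 10 *NR5A2* targets were lower. Some genes stand in more than 1 of these lists, and *NR5A2* itself is not in the table. *PCK1*, the gluconeogenic enzyme listed for C/EBP and FOXA, fell from 1276 to 169.6 CPM (−2.91, adjusted p = 1.39e-05 in edgeR). *TTR*, transthyretin and a classical FOXA target, fell from 6079 to 1319 CPM (−2.20, adjusted p = 6.29e-07 in edgeR). *G6PC*, which releases glucose, fell from 717 to 160.3 CPM (−2.16, adjusted p = 2.55e-07 in edgeR). *ALB*, albumin, and *TAT*, tyrosine aminotransferase, each had a log2 fold change of −1.29 in edgeR. Among the targets of *NR5A2*, *CYP8B1*, the sterol 12-alpha-hydroxylase, fell from 98.4 to 30.99 CPM (−1.67, adjusted p = 6.28e-06 in edgeR). *CYP7A1*, the rate-limiting enzyme of bile acid synthesis, had a log2 fold change of 0.0057 (adjusted p = 0.99 in edgeR; 44.9 ± 20.8 and 45.2 ± 9.51 CPM, SD, n = 6 each). The smallest decreases called were those of *SCARB1* (−0.34, adjusted p = 0.0275 in edgeR) and *APOM* (−0.30, adjusted p = 0.025 in edgeR), both of which turned positive with library size alone, where 8 targets were lower and 0 higher. *SCARB1* lost its call without control 10 or 31 or NASH animal 11 or 20 (adjusted p = 0.0508 to 0.0603 in edgeR), and *APOM* without control 31 or 32 or NASH animal 9 or 20 (adjusted p = 0.0528 to 0.0566 in edgeR).

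*A1CF* acts with APOBEC1 and further proteins on the *APOB* transcript. Of 10 listed genes of this process and relatives of *A1CF* 7 are in the table. *APOBEC1*, *RBM46* and *CELF2* are not, so the level of the editing enzyme itself was not examined. Of the 7, 2 were higher, 2 lower and 3 not called in edgeR, a share of calls near the 53.9% over all symbols. *APOB* itself fell from 5511 ± 509 to 3686 ± 620 CPM (SD, n = 6 each; −0.58, adjusted p = 0.00117 in edgeR, and −0.10, adjusted p = 0.433, with library size alone), and *DNAJB11*, a chaperone that binds APOBEC1, was lower by 0.38 (adjusted p = 0.0246 in edgeR), on a count row that it shares with another symbol and with the opposite sign under library size alone. Without NASH animal 2 or 9 *DNAJB11* was not called (adjusted p = 0.0516 and 0.0501 in edgeR). The heterogeneous nuclear ribonucleoproteins *HNRNPR* and *HNRNPAB* were higher by 0.25 and 0.28 (adjusted p = 0.00473 and 0.0348 in edgeR). *HNRNPR* kept its call with each animal left out, whereas *HNRNPAB* lost it without control 5, 10 or 56 or NASH animal 2, 20 or 41 (adjusted p = 0.052 to 0.0819 in edgeR). *RBM47*, a close relative of *A1CF* that can take its place in editing, had a log2 fold change of −0.11 (adjusted p = 0.864 in edgeR). Its levels were 77.0 ± 43.3 CPM in controls and 71.6 ± 5.31 CPM in NASH (SD, n = 6 each). The controls with low *PROX1*, animals 5 and 31, also had the lowest *RBM47* of the controls, 5.36 and 41.7 CPM, whereas the other 4 were at 94.3 CPM or more and NASH animal 65 was at 68.3 CPM. RNA editing was not measured here.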

How the data were processed

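Liver RNA of 6 control and 6 NASH guinea pigs was sequenced as stranded mRNA libraries with single reads, and groups came from the sample labels, which name no batch. The authors trimmed reads with Trimmomatic 0.38.0, mapped them with HISAT2 2.1.0 to Cavpor3.0, ignored multimapped reads, quantified loci with StringTie 1.3.6 and deposited raw counts per locus, without symbols. The authors also deposited log2 values (rlog of DESeq2) for 11896 human orthologue symbols with a total of at least 200 counts. Symbols were tied to count rows by running rlog anew, which matched the deposited values to within 8.35e-07 on 11031 rows; 1515 symbols share a row. Totals were 16980274 to 33091460 counts per animal, and the depth behind each gene is given with its value. Each animal is 1 sample, and p-values measure the spread between animals.

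Counts were tested in R 4.3.3 with edgeR 4.0.16 (TMM factors, library size as the total of the whole count table, robust quasi-likelihood fit). The SE is the absolute log2 fold change over the square root of F. Log2 CPM used a prior count of 2. Ratios and correlations were tested by exact permutation in Python 3.11.15 with scipy 1.17.1. Procedures were tested on simulated data. Alternatives were RLE and upper-quartile factors, library size alone, DESeq2 1.42.0, limma-voom (limma 3.58.1), filterByExpr, each count row once, all rows holding 1 count or more, a stricter threshold (0.01), testing against a log2 fold change of 1 in size, rlog values with limma, a prior count of 0.5, other hepatocyte references and each animal left out in turn. Values were named for the identity genes, for the 2 highest and 2 lowest called genes of each list of regulators, targets and editing genes, and for genes related by family or name and known targets. The members and lists were chosen with earlier results of these data known. Values of some genes that count in these lists are not reported here. No genome of the build of the files was used here, so no position or sequence is given.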

Additional observations from a re-analysis of the deposited data

Results flagged for a closer look

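In each group of 6 animals, the highest and the lowest value were compared with the nearest of the others by Dixon's ratio at its 95% critical value. 66 groups were tested and 7 had an animal past that value; chance gives about 1 in 20 groups. 3 of the 7 concern the hepatocyte identity genes. *FOXA2* in NASH animal 9 was at 5.26 CPM, whereas the next NASH animal was at 2.75 CPM. *A1CF* relative to the hepatocyte markers was −4.08 on the log2 scale in NASH animal 2, below −2.92 in the next animal. *PROX1* relative to the same markers was −5.40 in NASH animal 65, and the next animal was at −3.55.

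The other 4 concern related genes. *DDIT3* was at 59.5 CPM in control 32, above 32.97 CPM in the next. *CREB3L3* was at 21.4 CPM in NASH animal 20, below 32.4 CPM in the next. *DNAJB11* was at 105 CPM in control 5, above 71.6 CPM in the next, and *HNRNPAB* at 68.0 CPM in control 56, below 87.7 CPM in the next.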

How the results depend on the processing

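*FOXA2*, *FOXA3* and *A1CF* stayed called lower with each animal left out in turn, with log2 fold changes of −2.36 to −1.79, −0.57 to −0.44 and −1.43 to −1.16, and 3 to 4 of the identity genes were called lower in these fits. 1 was called lower against a log2 fold change of 1, where 1100 of all symbols were called in place of 6411. Library size alone called 8514 symbols, 7603 higher and 911 lower, in place of 3318 and 3093, and every row with at least 1 count called 3600 higher and 2238 lower. With library size alone the log2 fold change reversed for *CEBPB* (0.36), *PROX1* (0.15), *CEBPZ* (0.27), *SCARB1* (0.13), *APOM* (0.18), *DNAJB11* (0.10), *ONECUT2* (0.35) and *RBM47* (0.36). *RBM47* was also 0.37 with limma-voom and 0.15 on rlog values, and *CYP7A1* was −0.0025 with each count row once. Leaving out animals gave −0.40 to 0.11 for *CEBPB*, −0.18 to 0.18 for *CYP7A1* and −0.35 to 0.022 for *RBM47*, and −0.022 to 0.31 for *DDIT3*, which was −0.016 without control 5 and NASH 65.

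Relative to the hepatocyte markers, *FOXA2* lost its call on rlog values (−0.25) and against *ALB* (−0.71), *ONECUT1* gained one against *ALB* (0.79), and *A1CF* lost it against *ALB* (−0.11), against the median of the markers (−0.34) and in 9 of 12 omissions of an animal (−0.60 to −0.26 over all 12). *PROX1* ranged from 0.49 to 1.19 with an animal left out.

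Of the regulators and relatives, 1 was higher and 10 lower. The number higher became 2 with upper-quartile factors, limma-voom, every row or without control 5 and NASH 65, 7 with library size alone, 0 against a log2 fold change of 1, and 1 to 2 with an animal left out. The number lower became 2 with library size alone, 5 at a threshold of 0.01 and 0 against a log2 fold change of 1. Targets lower fell from 15 to 8 with library size alone and 5 against a log2 fold change of 1. Editing genes higher, 2, became 4 with library size alone, 1 at a threshold of 0.01, 0 against a log2 fold change of 1, and 1 to 2 with an animal left out. Editing genes lower, 2, became 1 with upper-quartile factors, with every row, at a threshold of 0.01 and without control 5 and NASH 65, 0 with library size alone and against a log2 fold change of 1, and 1 to 2 with an animal left out. The cause was not tested.

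No paired analysis was possible because the groups share no animal number. Ratios with *CEBPA* or *FOXA1* were not run, since these genes are not rows of the log2 table. Some animals had low counts of *FOXA2* (39 at the lowest) and *CEBPB* (28 at the lowest), and the part of counting error in their spread was not tested.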

Other observations

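The row of the count table numbered next after that of *FOXA2* carries no symbol, and its values were looked at after those of *FOXA2* had been seen. It ran from 11.5 to 24.8 CPM in controls and from 2.31 to 8.26 CPM in NASH, with means of 15.5 ± 4.87 and 4.86 ± 2.41 CPM (SD, n = 6 each). The groups did not overlap, as was so in the lower direction for 15.3% of all symbols. The log2 difference was −1.77 (two-sided exact permutation p = 0.00216, the smallest that 6 against 6 animals allow), on 66 to 347 counts per animal. NASH animal 9, the highest of its group for *FOXA2*, was also the highest of its group here. What this row encodes is not given in the sources used here.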
